A study of Arabidopsis thaliana with 8 samples.

Results

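RNA levels after the first 12 h of recovery from a long heat stress were compared with those at the end of the heat. The comparison took 4 of the 8 libraries of the series, LHSR12_1 and LHSR12_2 against LHS_1 and LHS_2, and all 64512 loci of the expression table. LHSR12 seedlings had been held at 37 °C for 30 h and then returned to 22 °C for 12 h. LHS seedlings had been held at 37 °C for 30 h with no recovery. All were Arabidopsis thaliana of the Columbia ecotype, wild type, labelled 7 days old, and total RNA was taken from the seedlings. The other 4 libraries of the series are 2 of seedlings given 84 h of recovery (LHSR84) and 2 of controls (CTRL). Their values are given beside some results, and they entered the estimate of the spread. The labels give no time of day, and LHSR12 differs from LHS by 12 h as well as by the return to 22 °C, so recovery, time of day and age cannot be told apart. In RNA of seedlings, fewer cells of a type and less RNA per cell cannot be told apart either.

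At high temperature, heat shock factors of the A1 class start the transcription of chaperone genes, among them HSP70, HSP90, HSP101 and the small heat shock proteins, which hold and refold damaged proteins. HSFA2 and HSFA3 are themselves induced by heat and prolong the response, and B class factors such as HSFB1 and HSFB2B repress it. Once the temperature drops, chaperones are known to bind the A1 factors and close the loop, while stored chaperones, HSP21 and HSA32 among them, mark the phase called heat memory.

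The recovered depth was 29.0 M and 28.6 M reads in LHSR12 and 27.8 M in LHS_2, and the scaled reads of LHS_1 summed to 26.4 M (M stands for 1e6). The unit of the table, called scaled reads here, is reads over a factor that each library has of its own. These values are not corrected for length, so levels are compared between groups and not between genes. Replicates differed by a median of 0.196 on the log2 scale in LHSR12 and by the same in LHS. No label tells whether replicate libraries stem from separate cultures, so p-values measure the spread between libraries, which may be technical. Leaf antenna genes and root cell markers were read in all 4 libraries, which goes with the seedling label. Of the seed markers, only LEC1, a regulator of embryos, was at 0 in all of them. Others were read, among them CRA1 with 359 and 54.8 scaled reads in LHS, and EM6 with 99.6 and 58.8 in LHSR12.

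About as many genes were higher after 12 h of recovery as were lower. Of 24624 gene loci tested, 15752 were called (64.0%), with 7965 higher (32.3%) and 7787 lower (31.6%) in LHSR12. A locus was called at an adjusted p below 0.05, from limma with Benjamini-Hochberg adjustment over all 27638 loci tested. The LHSR12 and LHS libraries did not overlap at 83.5% of gene loci. With a further minimum of 2-fold, 10086 gene loci remained (41.0%), of which 5661 were higher (23.0%) and 4425 lower (18.0%). The balance tilted with size. Among called changes of under 2-fold, 2304 loci were higher and 3362 lower, whereas above a log2 change of 5 there were 271 higher and 78 lower. The median log2 fold change over all gene loci was 0.01, and it is the value against which list medians are to be read. In the same way, list counts are to be read against the shares of 32.3% higher and 31.6% lower. Throughout, a log2 fold change is LHSR12 over LHS on the log2(scaled reads + 1) scale, with its standard error.

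In several of the 44 gene lists most members were lower in LHSR12. Among these were the large chaperones, splicing factors of the SR family, nucleolar ribosome biogenesis, proteasome, small heat shock proteins and ONSEN copies. Lists with most members higher included aliphatic glucosinolates, camalexin and indole glucosinolates, salicylic acid and immunity, anthocyanin and flavonol genes, and regulators of greening. Members named below are the 2 largest called rises and 2 largest called falls of each list, with all heat shock factors, ONSEN copies and clock genes. Any further member was chosen after its values were seen.

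The 10 largest rises among well-read genes with a symbol were those of CYP71A13, ANK, LURP1, PR2, DFR, LHY, PR1, BGLU45, SAG13 and TT19, and most are described with their pathways below. ANK (AT5G54610), an ankyrin-repeat protein, had 1244 and 1281 scaled reads in LHSR12, against 1.0 and 0 in LHS, which is a ratio of 2507 against 1 read in LHS (95% exact interval 449.6 to 99043). BGLU45 (AT1G61810), a glucosidase of lignin precursors, had 473 and 733 scaled reads in LHSR12, against 0 and 3.04 in LHS, a ratio of 398.6 (136.1 to 1935) against 3 reads. In these ratios the smallest value of LHS_1 was taken as 1 read, and the intervals cover counting error only. The 10 largest falls were those of COR27, MYB120, ELF4, HSFA6B, HSFA7B, FKF1, HSFA2, CUL2, BOA and COL9. MYB120 (AT5G55020), a factor known from pollen tubes, had 0 and 2.32 scaled reads in LHSR12, against 176 and 197 in LHS, for a ratio of LHS over LHSR12 of 161.4 (54.81 to 786.3), and DESeq2 did not call it. CUL2 (AT1G02980), a cullin-like gene, had 157 and 117 scaled reads in LHSR12, against 7253 and 7961 in LHS (log2 fold change −5.80 ± 0.50, adjusted p = 2.13e-05).

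By mass of RNA, the largest gains were of RCA, CHLH, AT3G02468, SAMDC and LHCB1.1, and the largest losses were of ROF2, HSP70-4, HSP90.1, AT1G48710 and HSP70-1. SAMDC (AT3G02470), an enzyme of polyamine synthesis, had 44120 and 45699 scaled reads in LHSR12, against 7183 and 6279 in LHS (log2 fold change 2.74 ± 0.14, adjusted p = 1.94e-06). AT3G02468, with 44276 and 45894 in LHSR12 against 7064 and 6209 in LHS, had nearly the same values as SAMDC, and the reads of these overlapping loci cannot be told apart.

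**Figure D1:**
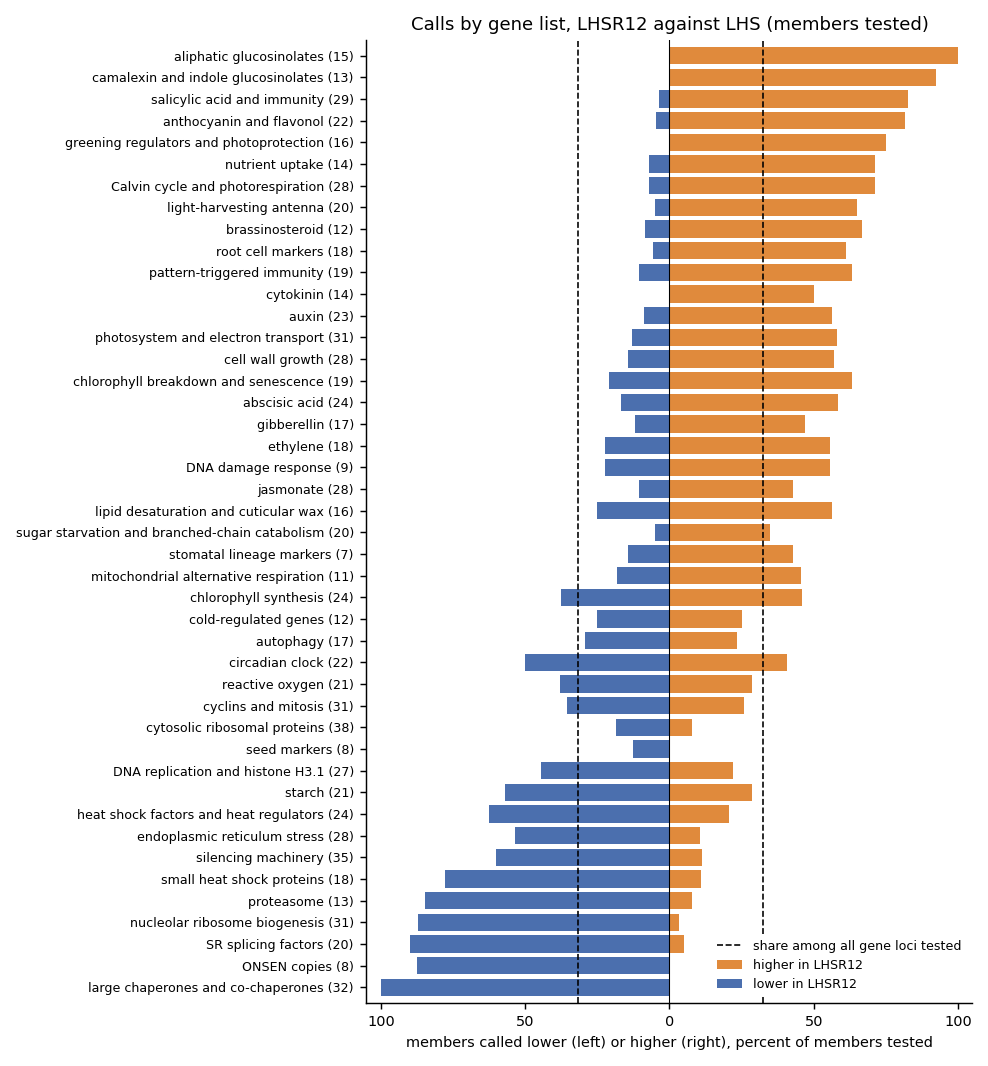
Percent of the tested members of each gene list called higher (to the right) and lower (to the left) in LHSR12 than in LHS, with the number of members tested in brackets. Dashed lines mark the shares over all gene loci, 32.3% higher and 31.6% lower. The 32 large chaperones all lie on the lower side and the 15 aliphatic glucosinolate genes all lie on the higher side.

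Several heat shock factors and other heat regulators had very large falls, while some heat shock factors changed little or rose. Of 24 heat shock factors and heat regulators, 15 were lower, 5 higher and 4 not called in LHSR12, with a median log2 fold change of −1.05. Copies of the heat shock element, the site that heat shock factors are known to bind, were looked for in the 250 bases upstream of each gene's annotated start, as the blocks GAA, TTC and GAA in this order with 2 bases between neighbours, on both strands. It was found upstream of 0.412% of 22796 tested protein-coding genes and of 4 of these 24 genes (16.7%). The 3 factors among them follow, with 1 small heat shock protein gene that has 2 copies. The sequences are from the RefSeq TAIR10.1 genome, 5′ to 3′ on the gene's strand, and capitals mark the element as read on either strand.
HSFA2 (chr2:11135514-11135573, plus strand): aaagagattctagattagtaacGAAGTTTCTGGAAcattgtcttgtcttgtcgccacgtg
HSFA7A (chr3:19264941-19265020, plus strand): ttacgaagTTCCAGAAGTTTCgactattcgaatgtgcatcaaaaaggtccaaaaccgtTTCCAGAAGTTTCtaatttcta
HSFA7B (chr3:23399056-23399115, plus strand): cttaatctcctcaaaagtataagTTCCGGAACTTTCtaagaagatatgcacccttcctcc
HSP17.4 (chr3:16984868-16984972, minus strand): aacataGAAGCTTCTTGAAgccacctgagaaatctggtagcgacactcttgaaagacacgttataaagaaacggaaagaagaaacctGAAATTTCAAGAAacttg

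HSFA2 (AT2G26150), the factor that sustains heat acclimation, had 44.4 and 62.6 scaled reads in LHSR12, against 3204 and 3198 in LHS (log2 fold change −5.90 ± 0.28, adjusted p = 1.49e-06). Its LHSR12 values lay far below LHS and near those of LHSR84, 61.4 and 48.3, while CTRL had 10.8 and 17.2. HSFA7B (AT3G63350) had 2.3 and 3.09 scaled reads in LHSR12, against 252 and 228 in LHS, and HSFA6B (AT3G22830) had 2.3 and 10.8 scaled reads in LHSR12, against 447 and 412 in LHS. Both are among the 10 largest falls of all named genes, with log2 fold changes of −6.04 ± 0.86 and −6.10 ± 0.56. HSFA7A had 103 and 128 scaled reads in LHSR12, against 1119 and 1160 in LHS. HSFA3, which DREB2A is known to activate in heat, had 123 and 140.8 scaled reads in LHSR12, against 4199 and 4850 in LHS (log2 fold change −5.09 ± 0.15, adjusted p = 2.41e-07).

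The AP2-type regulators DREB2A, DREB2B and DREB2C fell as well. DREB2A had 257 and 230.5 scaled reads in LHSR12, against 3417 and 4140 in LHS, DREB2B had 112 and 119.9 in LHSR12 against 1837 and 2080 in LHS, and DREB2C had 98.8 and 151 in LHSR12 against 3793 and 4264 in LHS. Their log2 fold changes were −3.95 ± 0.13, −4.07 ± 0.13 and −5.03 ± 0.28, and in LHSR12 all 3 stood below their CTRL means of 436, 282 and 205 scaled reads. MBF1C, a coactivator needed for heat tolerance, also fell, with 5163 and 4656 scaled reads in LHSR12, against 23991 and 25379 in LHS (log2 fold change −2.33 ± 0.17, adjusted p = 9.05e-06). It stayed above CTRL, where it had 332 and 489.

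Among the A1 factors, which start the response, the changes were small and of mixed sign. HSFA1B had 477 and 478 in LHSR12 against 838 and 965 in LHS (−0.91 ± 0.13), and HSFA1D had 442 and 486 in LHSR12 against 947 and 928 in LHS (−1.02 ± 0.12). HSFA1A (−0.36) was called lower and HSFA1E (0.51) higher, but these calls did not hold when 1 library was left out, HSFA1A without LHSR12_1, LHSR12_2 or LHS_2 (adjusted p 0.071 to 0.181) and HSFA1E without LHSR12_1, LHSR12_2 or LHS_1 (adjusted p 0.109 to 0.207). The repressors HSFB1 and HSFB2B had log2 fold changes of −1.18 ± 0.16 and −1.08 ± 0.15, and HSFA8 had −1.59 ± 0.17.

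A few factors ran the other way. HSFA6A had 55.9 and 72.7 scaled reads in LHSR12, against 1.0 and 0 in LHS, and HSFB3 had 31.4 and 35.6 scaled reads in LHSR12, against 1.0 and 0 in LHS. With 1 read in LHS each, when the smallest LHS_1 value is taken as 1 read, the ratios were 128 (95% exact interval 22.6 to 5069) for HSFA6A and 66.5 (11.6 to 2655) for HSFB3. HSFC1 and HSFB2A rose by log2 1.197 and 0.65, with 2822 and 2801 in LHSR12 against 1699 and 1881 in LHS for HSFB2A, a gene that was at 248 and 259 in CTRL. HSFA4A, HSFA4C, HSFA5 and HSFB4 were not called, with log2 fold changes between 0.05 and 0.32. HSFA5 was called higher without LHS_2 (adjusted p 0.037).

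The RNA of the large chaperones fell in the cytosol and in organelles. All 32 large chaperones and co-chaperones were lower in LHSR12 (median log2 fold change −2.47), 29 of them by at least 2-fold. The summed scaled reads of the list were 315061 and 285486 in LHSR12, against 1680620 and 1890850 in LHS. The sums were 164429 and 258759 in CTRL, below both LHSR12 libraries. No large chaperone gene had the heat shock element, in the exact form given above, in the 250 bases searched. Few of all tested genes had this form and no other form was searched for, so its absence tells little about these genes.

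The largest losses of scaled reads in the list were of heat-inducible genes. Of all gene loci, ROF2 (AT5G48570), a peptidyl-prolyl isomerase induced by heat, lost the most scaled reads, with 9233 and 7007 scaled reads in LHSR12, against 176928 and 229487 in LHS (log2 fold change −4.65 ± 0.28, adjusted p = 3.91e-06). HSP70-4 (AT3G12580) had 27460 and 23205 scaled reads in LHSR12, against 209068 and 230620 in LHS, and HSP90.1 (AT5G52640) had 21834 and 18010 scaled reads in LHSR12, against 180193 and 235823 in LHS. All 3 were still far above CTRL, where they averaged 430, 659 and 562 scaled reads. HSP101, the disaggregase needed for acquired heat tolerance, had 4118 and 3698 scaled reads in LHSR12, against 36972 and 41071 in LHS (log2 fold change −3.32 ± 0.25, adjusted p = 9.95e-06). The co-chaperone HOP3 had the next largest fall of the list after ROF2 (−3.71 ± 0.37).

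Some constitutive members lay below the controls. HSP70-1 (AT5G02500), the main housekeeping HSP70, had 29350 and 27472 scaled reads in LHSR12, against 110880 and 114987 in LHS (log2 fold change −1.99 ± 0.22, adjusted p = 9.14e-05), and 50791 and 70408 in CTRL, so that both LHSR12 libraries were lower than both CTRL libraries. HSP90.2 and HSP90.3 had 12835 and 11467 in LHSR12 against 92960 and 90643 in LHS, and 10267 and 9823 in LHSR12 against 56788 and 55387 in LHS, and their LHSR12 values also lay below their CTRL means of 15539 and 16179. Reads may be shared between HSP90.2, HSP90.3 and HSP90.4, which are near-identical. In organelles, the log2 fold changes of the mitochondrial MTHSC70-2, HSP60 and HSP90.6 were −2.91, −2.87 and −3.26, and those of the chloroplast HSP90.5, CPN60A and CPHSC70-2 were −2.88, −2.99 and −2.47. The smallest fall was that of CLPB3, the chloroplast disaggregase, with 31725 and 28765 scaled reads in LHSR12, against 36306 and 43577 in LHS (log2 fold change −0.40 ± 0.13, adjusted p = 0.0281). HSA32, a heat memory protein, followed with 3400 and 3275 scaled reads in LHSR12, against 4837 and 6819 in LHS (log2 fold change −0.78 ± 0.20, adjusted p = 0.00901).

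Most small heat shock protein genes fell. Of 18, 14 were lower, 2 higher and 2 not called (median log2 fold change −2.73). HSP17.8, HSP23.6-MITO and HSP23.5-M fell furthest, HSP17.8 with 890.2 and 836 scaled reads in LHSR12, against 20223 and 24657 in LHS (log2 fold change −4.69 ± 0.50, adjusted p = 7.1e-05), and HSP23.6-MITO with 1230 and 1012 scaled reads in LHSR12, against 23836 and 27300 in LHS (log2 fold change −4.51 ± 0.48, adjusted p = 6.94e-05). HSP17.4, whose upstream sequence is shown above, had 6349 and 3746 scaled reads in LHSR12, against 32411 and 48204 in LHS (log2 fold change −3.02 ± 0.77, adjusted p = 0.00878). The chloroplast HSP21, a protein of heat memory, had 6540 and 4742 scaled reads in LHSR12, against 54648 and 70342 in LHS (log2 fold change −3.48 ± 0.31, adjusted p = 2.6e-05), against 12.2 and 16.1 in CTRL.

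A few small heat shock protein genes were not called lower. HSP26.5 had 6289 and 4828 scaled reads in LHSR12, against 4808 and 6522 in LHS (log2 fold change −0.02 ± 0.35, adjusted p = 0.962) and 19.6 on average in CTRL. HSP15.7, a peroxisomal protein, was higher, with 2632 and 2029 scaled reads in LHSR12, against 1068 and 1079 in LHS (log2 fold change 1.11 ± 0.21, adjusted p = 0.00203). HSP15.4, which stood at a mean of 678 scaled reads in CTRL, was called higher as well (0.79), and its call was lost without any 1 of the 4 libraries (adjusted p 0.0736 to 0.198). HSP17.6A (−1.498 ± 1.02) was not called.

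**Figure D2:**
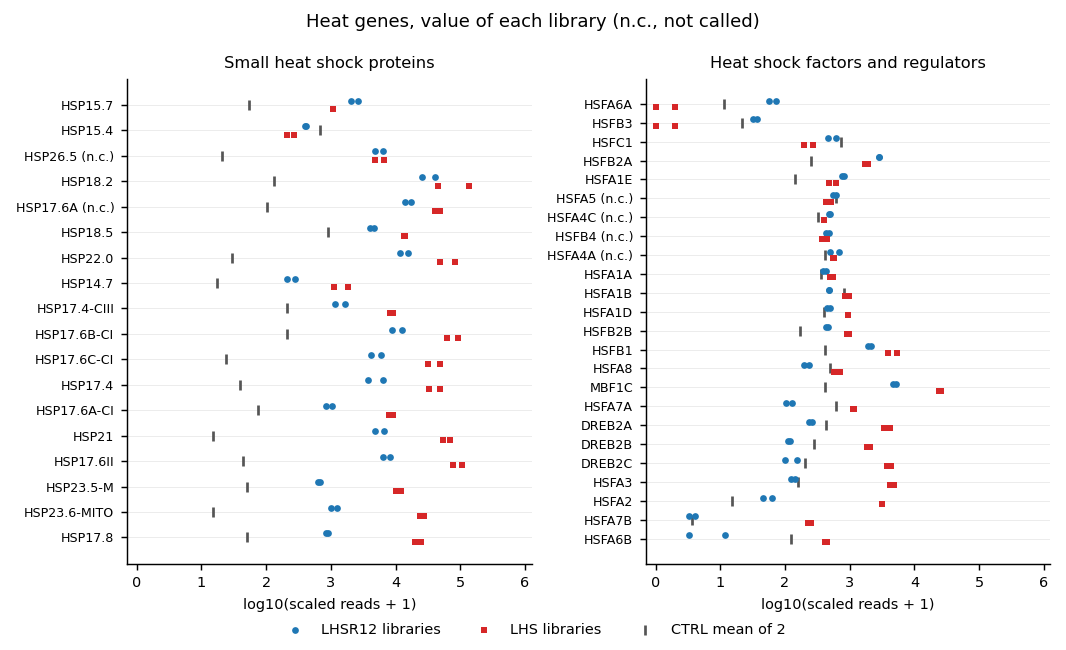
Scaled reads of heat genes in each library on an axis of log10(scaled reads + 1), with LHSR12 as blue dots drawn above LHS as red squares, and the CTRL mean of 2 libraries as a grey tick. Genes marked n.c. were not called. HSFA2 lies at 44.4 and 62.6 in LHSR12 against 3204 and 3198 in LHS, while HSP26.5 overlaps between the groups.

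Genes of the unfolded protein response in the endoplasmic reticulum fell more often than they rose. Of 28, 15 were lower, 3 higher and 10 not called (median log2 fold change −0.50). ERDJ3A, a co-chaperone of BiP, had 364 and 264 scaled reads in LHSR12, against 2052 and 2515 in LHS (log2 fold change −2.87 ± 0.28, adjusted p = 4.74e-05), and NAC103, a transcription factor of this response, had 319 and 214 scaled reads in LHSR12, against 1048 and 951 in LHS (log2 fold change −1.93 ± 0.25, adjusted p = 0.000208). The membrane-bound sensor BZIP28 (−1.55 ± 0.10) and the RNA-splicing sensor IRE1A (−0.87 ± 0.13) fell. The splicing target of IRE1A, BZIP60, was higher, with 2290 and 2519 scaled reads in LHSR12, against 1319 and 1422 in LHS (log2 fold change 0.81 ± 0.10, adjusted p = 0.000172). BIP3 had 116 and 107 scaled reads in LHSR12, against 3.0 and 8.11 in LHS (log2 fold change 4.22 ± 0.83, adjusted p = 0.00221), and its call was lost without LHS_1 (adjusted p 0.0542). The 3 rises became 1 without LHS_1.

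Transposable element loci made up a smaller share of the RNA after recovery. They held 2.15% and 1.76% of scaled reads in LHSR12, against 3.58% and 4.39% in LHS, and 0.586% and 0.627% in CTRL. In each LHSR12 and LHS library, most of the element reads were of the ONSEN copies described below. Of 3014 element loci tested, 1433 were called (47.5%), with 630 higher (20.9%) and 803 lower (26.6%), and the median log2 fold change was −0.15. With the further minimum of 2-fold, 1353 of the element loci tested remained (44.9%), with 604 higher (20.0%) and 749 lower (24.9%). The libraries of LHSR12 and LHS did not overlap at 70.2% of element loci. The element counts were lower with the count tools: edgeR on recovered reads of 7 libraries called 857, and DESeq2 called 577. AT1TE71030 had 0 and 0 scaled reads in LHSR12, against 1711 and 2172 in LHS, at least 837-fold lower with a floor of 3 reads per library. AT2TE25440 had 473 and 452 scaled reads in LHSR12, against 0 and 0 in LHS, at least 152-fold higher.

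ONSEN, a copia-type retrotransposon whose ends are known to bind heat shock factors, fell only partly in 12 h. All 8 copies had lower values in both LHSR12 libraries than in both LHS libraries, and 7 were called lower (median log2 fold change −1.46). Summed over the copies there were 303418 and 221858 scaled reads in LHSR12, against 595600 and 861391 in LHS, 90768 and 69694 in LHSR84, and 187 and 509.5 in CTRL. The LHSR12 sums lay between those of LHS and LHSR84, and all 3 groups were far above CTRL.

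The copies differed in log2 fold change. ONSEN-B had 853 and 577 scaled reads in LHSR12, against 15308 and 17884 in LHS (log2 fold change −4.56 ± 0.43, adjusted p = 3.57e-05), and ONSEN-E had 3623 and 2789 scaled reads in LHSR12, against 24737 and 33330 in LHS (log2 fold change −3.17 ± 0.81, adjusted p = 0.00878). ONSEN-C had 119284 and 96455 scaled reads in LHSR12, against 241420 and 332286 in LHS. The gene locus AT1G48710 had nearly the same values, 119238 and 96420 in LHSR12 against 241293 and 332165 in LHS, and was the fourth largest loss of scaled reads among gene loci. Its call was lost without any 1 of the 4 libraries (adjusted p 0.0824 to 0.18). ONSEN-A, ONSEN-C, ONSEN-F, ONSEN-G and ONSEN-H had log2 fold changes of −1.36, −1.401, −1.401, −1.197 and −1.53, and ONSEN-D had −1.67 ± 0.69 (adjusted p = 0.0627, not called). The count of 7 calls fell to 3 without LHSR12_1 or LHS_1 and to 1 without LHSR12_2 or LHS_2. Copies of ONSEN are near-identical, and reads may be shared among them.

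Genes of the circadian clock changed in both directions, with large rises of LHY and CCA1 and large falls of ELF4, FKF1 and BOA. The clock runs on morning factors (CCA1, LHY and their relatives of the RVE family), the PRR repressors that follow them through the day, and an evening complex of ELF3, ELF4 and LUX that represses at night. Of 22 clock genes, 9 were higher, 11 lower and 2 not called in LHSR12. Of these calls, 7 rises and 10 falls were of at least 2-fold. LHSR12 was taken 12 h after the end of heat, and the part of the time of day in these values cannot be told apart from that of recovery.

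The evening element, AAAATATCT, is the site through which CCA1 and LHY are known to repress evening genes. On both strands of the same 250 bases it was found in 2.44% of tested protein-coding genes, in 6 of the 22 clock genes (27.3%), and in 3 of the 10 genes with the largest falls. These 3 and the clock-controlled CCR2, with 3 copies, are shown with the element in capitals.
COR27 (chr5:17199911-17199970, minus strand): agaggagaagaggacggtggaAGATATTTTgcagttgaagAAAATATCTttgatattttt
FKF1 (chr1:25508439-25508498, plus strand): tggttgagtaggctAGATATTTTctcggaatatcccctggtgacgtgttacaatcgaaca
BOA (chr5:24003828-24003887, plus strand): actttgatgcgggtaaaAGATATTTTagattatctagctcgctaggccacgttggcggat
CCR2 (chr2:9266568-9266647, minus strand): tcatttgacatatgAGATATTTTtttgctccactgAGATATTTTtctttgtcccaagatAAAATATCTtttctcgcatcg

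LHY, CCA1, RVE8 and RVE1 rose. LHY (AT1G01060) had 12504 and 13841 scaled reads in LHSR12, against 37.1 and 32.5 in LHS (log2 fold change 8.53 ± 0.25, adjusted p = 2.41e-07), and CTRL had 107 and 57.9. CCA1 had 7531 and 8229 scaled reads in LHSR12, against 276 and 316 in LHS (log2 fold change 4.73 ± 0.22, adjusted p = 1.26e-06). RVE8, an activator of evening genes, had 1701 and 2008 scaled reads in LHSR12, against 53.1 and 52.7 in LHS, and RVE1, which links the clock to auxin, had 2074 and 2568 in LHSR12 against 448 and 424 in LHS. Their log2 fold changes were 5.10 ± 0.38 and 2.403 ± 0.22. The coactivators LNK1 and LNK2 differed in size of change, with 8815 and 9866 scaled reads in LHSR12, against 471 and 386 in LHS for LNK2 (4.45 ± 0.34) and 5514 and 5672 in LHSR12 against 2924 and 3298 in LHS for LNK1 (0.85 ± 0.12). PRR9, the first of the PRR genes in the day, rose by log2 2.46, CHE by 1.095 and CDF1 by 0.69. The call of CDF1 was lost without LHSR12_2 or LHS_2 (adjusted p 0.0767 to 0.0848).

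All 3 genes of the evening complex fell. ELF4 (AT2G40080) had 1.53 and 0 scaled reads in LHSR12, against 113 and 159 in LHS, or 2 reads in LHSR12, for a ratio of LHS over LHSR12 of 177 (exact interval 48.4 to 1466). LUX had 162 and 167 scaled reads in LHSR12, against 2796 and 3599 in LHS (log2 fold change −4.26 ± 0.14, adjusted p = 3.26e-07), and its homologue BOA (AT5G59570) had 11.5 and 6.19 in LHSR12 against 429 and 489 in LHS (−5.60 ± 0.33). ELF3, the third member of the evening complex, had 461 and 518 scaled reads in LHSR12, against 3044 and 3449 in LHS (log2 fold change −2.73 ± 0.11, adjusted p = 6.27e-07). FKF1 (AT1G68050), a blue-light receptor of the flowering pathway, had 6.89 and 13.1 scaled reads in LHSR12, against 566 and 774 in LHS (log2 fold change −5.97 ± 0.30, adjusted p = 1.73e-06). CCR2, an RNA-binding protein driven by the clock, had 168 and 57.2 scaled reads in LHSR12, against 2619 and 3724 in LHS (log2 fold change −4.98 ± 0.41, adjusted p = 1.83e-05).

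PRR5, PRR7 and TOC1, which repress the morning genes, fell with log2 fold changes of −4.17 ± 0.31, −1.64 ± 0.26 and −2.08 ± 0.12. GI, a daytime protein of flowering control, had 584 and 551 scaled reads in LHSR12, against 4251 and 3858 in LHS (−2.83 ± 0.19). In LHSR84, PRR7 and GI were lower still, with 89.8 and 108 for PRR7 and 282 and 302 for GI. RVE4 (0.21) and ZTL (−0.02) were not called, and RVE6 (−0.48) was called lower with an adjusted p of 0.0485, a call lost without any 1 of the 4 libraries (adjusted p 0.0858 to 0.272). Outside the list, COR27 (AT5G42900), a repressor tied to the clock and to cold, had the largest fall of all named genes, with 6.13 and 21.7 scaled reads in LHSR12, against 1439 and 1616 in LHS (log2 fold change −6.91 ± 0.44, adjusted p = 5.08e-06). COL9, a CONSTANS-like gene that delays flowering, had 51.3 and 69.6 scaled reads in LHSR12, against 2481 and 2528 in LHS (log2 fold change −5.37 ± 0.16, adjusted p = 2.41e-07).

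**Figure D3:**
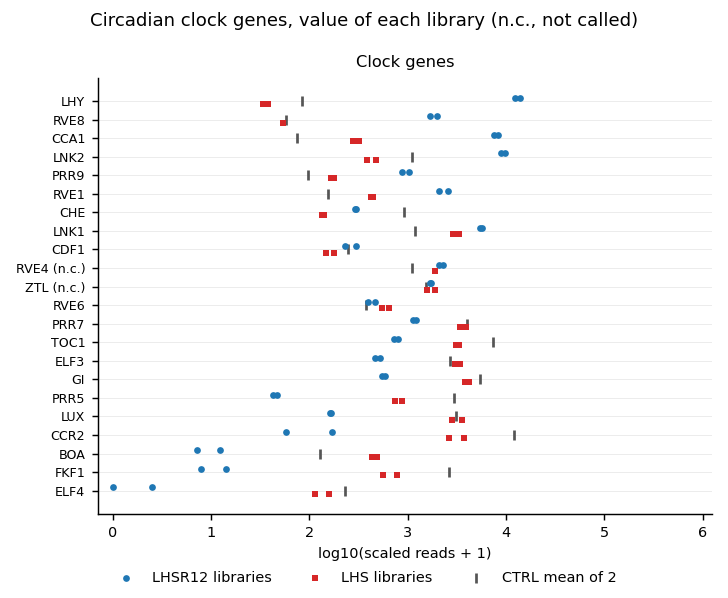
Scaled reads of the 22 clock genes in each library on an axis of log10(scaled reads + 1), with LHSR12 as blue dots above LHS as red squares and the CTRL mean as a grey tick. LHY, CCA1, RVE8 and LNK2 lie to the right of LHS, and ELF4, FKF1, BOA, LUX and PRR5 lie to the left by more than 1 unit.

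PR1, PR2 and LURP1, genes of immunity that were near 0 at the end of heat, were among the 10 largest rises. Salicylic acid is made by way of ICS1, EDS5 and PBS3, and its receptors of the NPR family bring on the PR genes. EDS1, PAD4 and SAG101 relay signals of resistance proteins. Of 29 genes of this pathway, 24 were higher, 1 lower and 4 not called (median log2 fold change 2.19). PR1 (AT2G14610) had 1022 and 991 scaled reads in LHSR12, against 1.0 and 3.04 in LHS (log2 fold change 8.47 ± 0.50, adjusted p = 3.83e-06). LURP1 (AT2G14560), needed for resistance to a downy mildew, had 1605 and 1151 scaled reads in LHSR12, against 0 and 3.04 in LHS, and PR2 (AT3G57260, a glucanase listed as BGL2 in the annotation) had 816 and 794 in LHSR12 against 0 and 1.01 in LHS. Counted against 3 reads in LHS, the ratio for LURP1 was 912.5 (exact interval 312 to 4427), and against 1 read for PR2 it was 1598 (286.6 to 63162). In CTRL the 3 genes were also near 0, at 0 and 1.07, 0 and 2.15 and 4.06 and 3.22.

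Regulators upstream of the PR genes rose in part. The regulators CBP60G and SARD1, which turn on ICS1, had 557 and 929.6 in LHSR12 against 22.0 and 23.3 in LHS, and 540.1 and 752 in LHSR12 against 135 and 135 in LHS. ICS1 itself had 747 and 1161 scaled reads in LHSR12, against 335 and 276 in LHS (log2 fold change 1.61 ± 0.26, adjusted p = 0.000787), and EDS1 had 1773 and 2100 scaled reads in LHSR12, against 666 and 654 in LHS (log2 fold change 1.55 ± 0.11, adjusted p = 9.09e-06). ACD6, an ankyrin membrane protein that amplifies the response, had 3047 and 3080 scaled reads in LHSR12, against 14.02 and 22.3 in LHS (log2 fold change 7.36 ± 0.26, adjusted p = 4.56e-07). NPR1, the receptor, showed 883 and 983 scaled reads in LHSR12, against 965 and 886 in LHS, with overlapping groups (log2 fold change 0.01 ± 0.15, adjusted p = 0.96). The single fall was that of WRKY18 (−0.41 ± 0.13), and it was lost without any 1 of the 4 libraries (adjusted p 0.0529 to 0.163). The W-box, TTGACC or TTGACT, to which WRKY factors are known to bind, was found upstream of 4 of the 29 genes (13.8%) and of 28.4% of all tested protein-coding genes.

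The receptors and kinases of pattern-triggered immunity, which detects microbial molecules, were higher more often than lower. Of 19, 12 were higher, 2 lower and 5 not called (median log2 fold change 1.07). FRK1, a common reporter of this response, had 75.8 and 156 scaled reads in LHSR12, against 5.01 and 0 in LHS, and NHL10 had 192 and 346 in LHSR12 against 21.0 and 9.13 in LHS. Both rose, by log2 5.49 and 4.11. FLS2, the receptor of bacterial flagellin, had 368 and 345 scaled reads in LHSR12, against 65.1 and 45.6 in LHS (log2 fold change 2.69 ± 0.27, adjusted p = 4.9e-05), and CTRL had 753 and 428. BAK1, its coreceptor, and BIR1, which restrains it, were called lower at log2 −0.70 and −0.56. Both calls were lost on leaving libraries out, BAK1 without LHSR12_1 or LHS_1 (adjusted p 0.0566 to 0.0666) and BIR1 without LHSR12_1, LHS_1 or LHS_2 (adjusted p 0.0783 to 0.102).

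Both branches of defence chemistry made from amino acids, indolic and aliphatic, were higher in nearly all members. Of 13 camalexin and indole glucosinolate genes, 12 were higher and 1, MYB122, was not called (median log2 fold change 2.28). CYP71A13 (AT2G30770), which makes indole-3-acetonitrile for camalexin, had the largest rise of all named genes, with 1342 and 2842 scaled reads in LHSR12, against 0 and 1.01 in LHS. It had 1 read in LHS, for a ratio of 4146 (exact interval 743.9 to 163804). CYP71A12, a near-identical copy, had 179 and 305 scaled reads in LHSR12, against 0 and 0 in LHS, at least 79.7-fold higher. PAD3, the last enzyme of the pathway, had 1615 and 3701 scaled reads in LHSR12, against 69.1 and 94.3 in LHS (log2 fold change 4.90 ± 0.46, adjusted p = 3.69e-05). In these 3 genes LHSR12_2 was the higher library. The regulators MYB51 and MYB34 rose by log2 1.36 and 1.63.

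All 15 genes of aliphatic glucosinolates, the methionine-derived compounds, were higher by at least 2-fold (median 3.83). CYP79F1 had 6084 and 6891 scaled reads in LHSR12, against 137 and 40.6 in LHS (log2 fold change 6.42 ± 0.48, adjusted p = 1.04e-05), and CYP83A1 had 7025 and 7817 scaled reads in LHSR12, against 364 and 99.4 in LHS (log2 fold change 5.28 ± 0.48, adjusted p = 3.09e-05). Both groups were separate, and the LHS libraries differed from each other more than the LHSR12 libraries did. The summed level of the list was 45118 and 50282 in LHSR12, against 6162 and 3965 in LHS and 22590 and 32058 in CTRL. MYB28 and MYB29, which switch the pathway on, rose by log2 2.80 and 3.88, with 1853 and 1797 in LHSR12 against 289 and 234 in LHS for MYB28. Reads may be shared between CYP79F1 and CYP79F2 and between MAM1 and MAM3.

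Genes of jasmonate, the hormone of wounding, and of ethylene moved in both directions. Of 28 jasmonate genes, 12 were higher, 3 lower and 13 not called (median 0.38). JAZ8, a repressor of the pathway, had 32.2 and 55.7 scaled reads in LHSR12, against 8.01 and 11.2 in LHS (2.05 ± 0.54), and its call was lost without LHSR12_2 or LHS_1 (adjusted p 0.0611 to 0.0628). AOC1, an allene oxide cyclase, had 477 and 483 scaled reads in LHSR12, against 138 and 148 in LHS (log2 fold change 1.74 ± 0.17, adjusted p = 4.21e-05). Its neighbour in the family AOC2 had the opposite change, with 732 and 797 scaled reads in LHSR12, against 14839 and 17077 in LHS (log2 fold change −4.38 ± 0.16, adjusted p = 5.22e-07), and LOX3 fell as well (−0.77 ± 0.15). PDF1.2A, a defensin that marks combined jasmonate and ethylene signalling, was at 0 in all 4 libraries.

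Of 18 ethylene genes, 10 were higher, 4 lower and 4 not called (median 0.78). The stress-induced synthase gene ACS2 had 109 and 234 scaled reads in LHSR12, against 10.01 and 6.09 in LHS (log2 fold change 4.19 ± 0.45, adjusted p = 7.16e-05), and ERF1 had 98.8 and 129.9 scaled reads in LHSR12, against 14.02 and 23.3 in LHS (log2 fold change 2.58 ± 0.53, adjusted p = 0.00267). The receptor ETR2 had 122 and 109.8 scaled reads in LHSR12, against 613 and 687 in LHS (log2 fold change −2.48 ± 0.20, adjusted p = 1.64e-05), and the oxidase ACO4 had 6413 and 9010 scaled reads in LHSR12, against 20753 and 20614 in LHS (log2 fold change −1.44 ± 0.22, adjusted p = 0.000581). EIN2 and EIN3, the central transducers, were not called at log2 0.13 and −0.10.

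**Figure D4:**
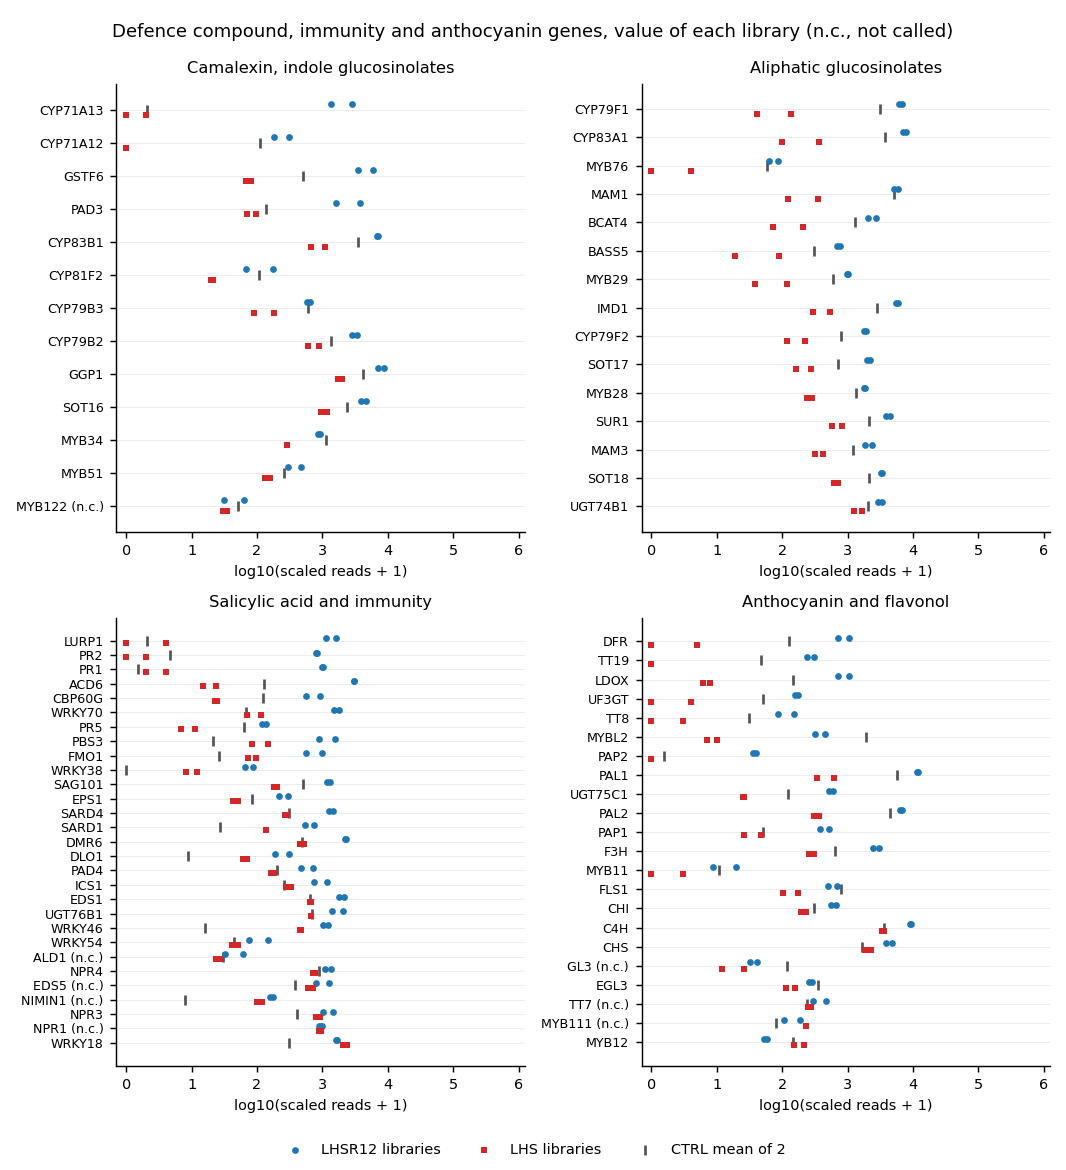
Scaled reads of defence and pigment genes in each library on an axis of log10(scaled reads + 1), with LHSR12 as blue dots above LHS as red squares and the CTRL mean as a grey tick. PR1, PR2 and CYP71A13 lie at or within 3.04 scaled reads of 0 in LHS and between 794 and 2842 in LHSR12.

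Genes of anthocyanin, the red pigment of stressed leaves, rose along nearly the whole pathway. Of 22 genes of anthocyanin and flavonols, 18 were higher, 1 lower and 3 not called (median log2 fold change 3.45, or 3.43 with the members at 0 in LHS set to their bounds). DFR (AT5G42800), the first step committed to anthocyanin, had 1045 and 699.9 scaled reads in LHSR12, against 4.01 and 0 in LHS (log2 fold change 8.58 ± 0.97, adjusted p = 9.48e-05), and LDOX, the next, had 1060 and 712 scaled reads in LHSR12, against 7.01 and 5.07 in LHS (log2 fold change 6.96 ± 0.64, adjusted p = 3.22e-05). TT19 (AT5G17220, listed as GSTF12), which carries the pigment to the vacuole, had 302 and 237 scaled reads in LHSR12, against 0 and 0 in LHS, at least 88.5-fold higher. At the entry of the pathway CHS had 4747 and 3852 scaled reads in LHSR12, against 1866 and 2277 in LHS (log2 fold change 1.05 ± 0.32, adjusted p = 0.0205), and CHI rose by log2 1.52. PAL1, which feeds it from phenylalanine, had 11466 and 11747 scaled reads in LHSR12, against 618 and 345 in LHS (log2 fold change 4.65 ± 0.24, adjusted p = 1.94e-06).

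The regulators of the pathway moved with it. PAP1 had 513 and 374 scaled reads in LHSR12, against 46.1 and 25.4 in LHS (log2 fold change 3.64 ± 0.67, adjusted p = 0.0015), and PAP2 had 34.5 and 39.4 in LHSR12 against 0 and 0 in LHS, at least 12.2-fold higher, although the near-identical pair may share reads. TT8, their bHLH partner, had 148 and 85.8 scaled reads in LHSR12, against 2.0 and 0 in LHS, which is a ratio of 116 against 2 reads in LHS (exact interval 31.9 to 963). The repressor MYBL2 also rose, with 314 and 452 scaled reads in LHSR12, against 9.01 and 6.09 in LHS (log2 fold change 5.49 ± 0.53, adjusted p = 4.26e-05), and remained below its CTRL values of 3041 and 778. MYB12, an activator of flavonols, was the only called fall, with 58.2 and 51.8 scaled reads in LHSR12, against 151 and 216 in LHS (log2 fold change −1.70 ± 0.30, adjusted p = 0.00129), and MYB111, TT7 and GL3 were not called. There were 2 called falls without either CTRL library.

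Genes of light-harvesting proteins rose in part. These nuclear genes encode the chlorophyll-binding antenna, LHCB for photosystem II and LHCA for photosystem I. Of 20, 13 were higher, 1 lower and 6 not called (median log2 fold change 1.26). LHCB2.3 had 2931 and 4062 scaled reads in LHSR12, against 43.1 and 35.5 in LHS (log2 fold change 6.43 ± 0.36, adjusted p = 3.15e-06), LHCB2.2 had 12323 and 13690 in LHSR12 against 544 and 489.8 in LHS, and LHCB2.1 had 18494 and 19928 in LHSR12 against 741 and 856 in LHS. LHCB1.1 (AT1G29920) had 33285 and 40055 scaled reads in LHSR12, against 1432 and 1855 in LHS (log2 fold change 4.48 ± 0.35, adjusted p = 1.24e-05) and was among the 5 largest gains of scaled reads of all gene loci. By contrast LHCA1 had 21230 and 27010 scaled reads in LHSR12, against 26028 and 33742 in LHS and LHCA3 had 17190 and 20236 in LHSR12 against 17780 and 19500 in LHS, with overlapping groups and log2 fold changes of −0.31 ± 0.26 and 0.00 ± 0.24. LHCB1.4 was the single fall, with 195 and 204 scaled reads in LHSR12, against 797 and 1264 in LHS (log2 fold change −2.33 ± 0.40, adjusted p = 0.00103).

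In total the antenna genes held 302295 and 352488 scaled reads in LHSR12, against 137388 and 173122 in LHS. Both groups lay far below CTRL, with 2154900 and 1275330. Reads may be shared among LHCB1.1, LHCB1.2 and LHCB1.3 and among the LHCB2 genes, so the split between copies is uncertain. In LHSR84 LHCB2.1, LHCB2.2, LHCB2.3 and LHCB1.1 averaged 1185, 446, 436 and 825 scaled reads, below their LHSR12 values. LHCB genes are under clock control in seedlings, and LHY and CCA1 were higher in the same libraries, and the part of the time of day in the antenna values cannot be told apart from that of recovery.

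**Figure D5:**
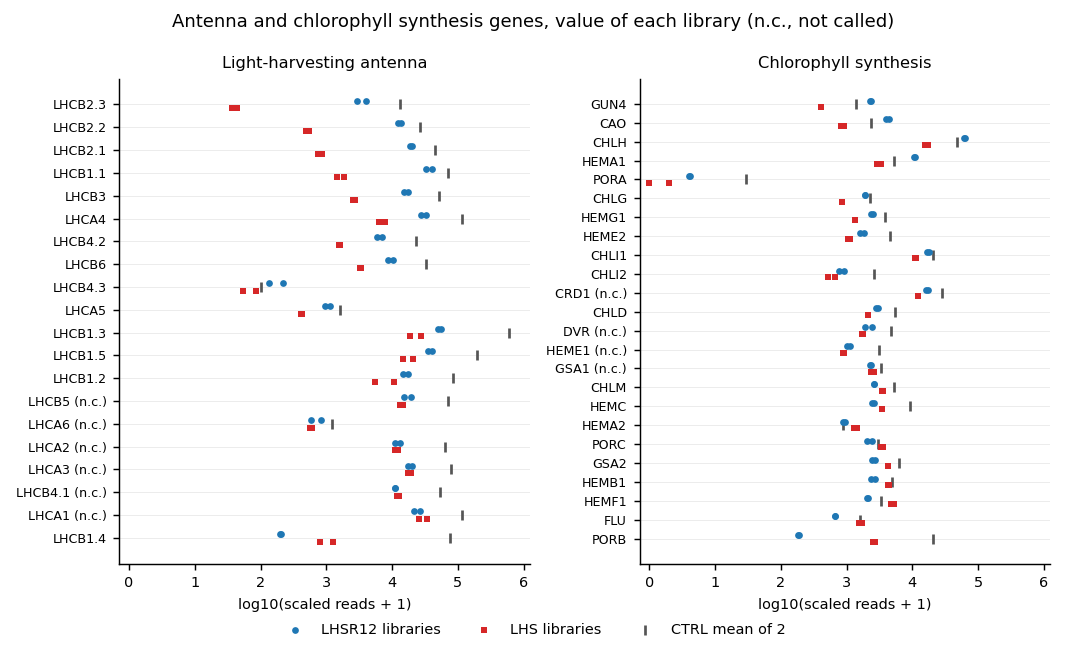
Scaled reads of light-harvesting antenna and chlorophyll synthesis genes in each library on an axis of log10(scaled reads + 1), with LHSR12 as blue dots above LHS as red squares and the CTRL mean as a grey tick. LHCB2.1, LHCB2.2, LHCB2.3 and LHCB1.1 lie right of LHS by more than 1 unit, while LHCA1 and LHCA3 overlap, and LHCB1.4 and PORB lie left of LHS.

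Genes of the photosystems and of carbon fixation were higher more often than lower. Of 31 genes of photosystem and electron transport proteins, 18 were higher, 4 lower and 9 not called (median 0.64). PSAN had 12252 and 15304 scaled reads in LHSR12, against 1881 and 2237 in LHS (log2 fold change 2.74 ± 0.19, adjusted p = 7.76e-06), PSAH2 had 6452 and 7983 in LHSR12 against 1230 and 1144 in LHS (2.60 ± 0.18), and PSAE2 had the opposite change with 2423 and 3000 in LHSR12 against 6339 and 6896 in LHS (−1.29 ± 0.17). PETE2, a plastocyanin, was called lower (−0.61), and its call was lost without LHSR12_1, LHS_1 or LHS_2 (adjusted p 0.0574 to 0.133). The 4 falls became 1 without LHSR12_1, LHS_1 or LHS_2.

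Of 28 Calvin cycle and photorespiration genes, 20 were higher, 2 lower and 6 not called (median 0.89). RCA (AT2G39730), the activase of Rubisco, gained more scaled reads than any other gene locus, with 96936 and 92307 scaled reads in LHSR12, against 24428 and 25698 in LHS (log2 fold change 1.92 ± 0.22, adjusted p = 9.69e-05), and its CTRL values were 92732 and 77972. CP12-2, a redox regulator of the cycle, had 1606 and 2024 scaled reads in LHSR12, against 153 and 152 in LHS (log2 fold change 3.55 ± 0.13, adjusted p = 4.96e-07), and GLDP1, of the glycine cleavage complex, had 35824 and 37523 scaled reads in LHSR12, against 6886 and 5839 in LHS (log2 fold change 2.53 ± 0.15, adjusted p = 4.32e-06). RBCS1A, a small subunit of Rubisco, had 106439 and 107885 scaled reads in LHSR12, against 89439 and 107020 in LHS, with overlapping groups (log2 fold change 0.13 ± 0.29, adjusted p = 0.713). The falls were CP12-1 (−0.98) and GLYK (−0.66), whose calls were lost, that of CP12-1 without LHS_2 (adjusted p 0.0817) and that of GLYK without any 1 of the 4 libraries (adjusted p 0.101 to 0.166).

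Genes of chlorophyll synthesis changed in both directions. Of 24 genes, 11 were higher, 9 lower and 4 not called (median 0.38). CHLH (AT5G13630, also named GUN5), the large subunit of magnesium chelatase, had 61718 and 63073 scaled reads in LHSR12, against 17282 and 15816 in LHS (log2 fold change 1.92 ± 0.19, adjusted p = 4.35e-05), and its activator GUN4 had 2370 and 2241 scaled reads in LHSR12, against 405 and 399.6 in LHS (log2 fold change 2.52 ± 0.15, adjusted p = 3.83e-06). CAO, which makes chlorophyll b, had 3910 and 4457 scaled reads in LHSR12, against 810.1 and 913 in LHS (log2 fold change 2.28 ± 0.18, adjusted p = 1.32e-05), and HEMA1, the first committed step, rose by log2 1.78. PORB, a light-dependent reductase, fell, with 178 and 188 scaled reads in LHSR12, against 2674 and 2481 in LHS (log2 fold change −3.81 ± 0.12, adjusted p = 3.49e-07), and FLU, which holds the pathway back in the dark, fell as well (−1.32 ± 0.10).

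Genes of chlorophyll breakdown and senescence were also mostly higher. Of 19 tested, 12 were higher, 4 lower and 3 not called (median 1.80). SAG13 (AT2G29350), a marker of senescence, had 713 and 695 scaled reads in LHSR12, against 2.0 and 1.01 in LHS, a ratio of 466 against 3 reads in LHS (exact interval 159 to 2262). JUB1, a factor known to delay senescence, had 266 and 339.5 scaled reads in LHSR12, against 2.0 and 5.07 in LHS (log2 fold change 6.14 ± 0.54, adjusted p = 2.5e-05), and the senescence regulator NAP had 624 and 1005 scaled reads in LHSR12, against 24.0 and 28.4 in LHS (log2 fold change 4.87 ± 0.32, adjusted p = 6.01e-06). SAG12, the usual marker of age-dependent senescence, was below the filter with at most 1.55 scaled reads in any of the 4 libraries. HCAR, which turns chlorophyll b back to chlorophyll a, had 104 and 118 scaled reads in LHSR12, against 771 and 732 in LHS (log2 fold change −2.75 ± 0.13, adjusted p = 1.56e-06), and PPH was called lower (−0.59 ± 0.14), a call lost without LHSR12_1 or LHS_1 (adjusted p 0.061 to 0.0694). The 4 falls became 2 without LHSR12_1 or LHS_1.

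Regulators of greening and of light protection were mostly higher. Of 16, 12 were higher, none lower (1 without either CTRL library) and 4 not called (median 1.08). ELIP2, a protein that protects against strong light, had 1698 and 1769 scaled reads in LHSR12, against 22.0 and 36.5 in LHS (log2 fold change 5.88 ± 0.27, adjusted p = 1.13e-06). The growth regulators PIF5 and PIF4 had 4812 and 5044 in LHSR12 against 429.6 and 562 in LHS, and 896 and 565 in LHSR12 against 92.1 and 81.1 in LHS. GLK1, an activator of antenna and chlorophyll genes, had 5447 and 4714 scaled reads in LHSR12, against 2009 and 2126 in LHS (log2 fold change 1.29 ± 0.10, adjusted p = 1.58e-05), while HY5 had 572 and 559.9 in LHSR12 against 601 and 665 in LHS and was not called.

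Starch genes were lower more often than higher. Of 21, 6 were higher, 12 lower and 3 not called (median −0.51). GBSS1, a starch synthase known to follow CCA1 and LHY, had 6429 and 6605 scaled reads in LHSR12, against 609 and 548 in LHS (log2 fold change 3.49 ± 0.18, adjusted p = 1.94e-06), and the amylase BAM3 had 4689 and 4641 scaled reads in LHSR12, against 658 and 678 in LHS (log2 fold change 2.80 ± 0.13, adjusted p = 1.35e-06). The degrading enzymes ISA3, PHS2 and AMY3 had 689 and 537 in LHSR12 against 3114 and 3187 in LHS, 771 and 722 in LHSR12 against 3820 and 3788 in LHS, and 591 and 549.9 in LHSR12 against 2985 and 2760 in LHS, with log2 fold changes of −2.37, −2.35 and −2.33. Of 20 genes of sugar starvation and branched-chain catabolism, 7 were higher, 1 lower and 12 not called. E1A1, of the branched-chain keto acid dehydrogenase, had 781 and 952 scaled reads in LHSR12, against 44.1 and 42.6 in LHS (log2 fold change 4.28 ± 0.33, adjusted p = 1.32e-05). BCAT2 was called higher (2.43) and BCE2 lower (−0.56), and both calls were lost, BCAT2 without LHSR12_2, LHS_1 or LHS_2 (adjusted p 0.0723 to 0.128) and BCE2 without any 1 of the 4 libraries (adjusted p 0.119 to 0.231). ASN1, a gene switched on by darkness, had 84.3 and 82.0 in LHSR12 against 42.1 and 10.14 in LHS and 2868 and 198 in CTRL. The 7 rises were 3 without LHSR12_2 or LHS_2 and 12 without either CTRL library.

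Abscisic acid genes were higher more often than lower, and cold genes were split evenly. Of 24 abscisic acid genes, 14 were higher, 4 lower and 6 not called (median 0.80). CYP707A2, which breaks the hormone down, had 419 and 452 scaled reads in LHSR12, against 7.01 and 10.14 in LHS (log2 fold change 5.53 ± 0.33, adjusted p = 4.07e-06), and ABA1, of its synthesis, had 12165 and 12530 scaled reads in LHSR12, against 1146 and 1121 in LHS (log2 fold change 3.44 ± 0.23, adjusted p = 6.22e-06). The falls of CYP707A4, with 467 and 486 in LHSR12 against 2863 and 2807 in LHS, and of ABI5, with 10.7 and 10.05 in LHSR12 against 45.1 and 36.5 in LHS, were of log2 2.57 and 1.87. Of 12 cold-regulated genes 3 were higher, 3 lower and 6 not called (median −0.21), against 32.3% higher and 31.6% lower over all gene loci. RD29A had 1095 and 659.7 scaled reads in LHSR12, against 1987 and 2638 in LHS (log2 fold change −1.43 ± 0.22, adjusted p = 0.000636). GOLS3 (2.33), COR15A (2.205) and KIN2 (−0.54) were called, but GOLS3 was not called without LHSR12_1 or LHS_1 (adjusted p 0.0584 to 0.0587), nor COR15A without any 1 of the 4 libraries (adjusted p 0.0767 to 0.137) or KIN2 without LHSR12_2 or LHS_1 (adjusted p 0.102 to 0.11). The 3 cold-regulated rises became 1 without either LHSR12 library and 0 without LHS_1, and the 3 falls became 1 without LHSR12_2.

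Genes that handle reactive oxygen showed no common direction. Of 21, 6 were higher, 8 lower and 7 not called (median −0.11), against 32.3% higher and 31.6% lower over all gene loci. RBOHF, an oxidase that makes superoxide, had 1784 and 1845 scaled reads in LHSR12, against 604 and 530.4 in LHS (log2 fold change 1.68 ± 0.12, adjusted p = 9.37e-06), and the catalase CAT2 had 51433 and 50698 scaled reads in LHSR12, against 17047 and 15928 in LHS (log2 fold change 1.63 ± 0.22, adjusted p = 0.000274). Another catalase, CAT1, had 918 and 967 in LHSR12 against 3024 and 3011 in LHS (−1.68 ± 0.18), and the plastid superoxide dismutase CSD2 had 747 and 636 in LHSR12 against 2348 and 2153 in LHS (−1.70 ± 0.13). APX2, a heat-induced peroxidase, was not called, with 8680 and 6904 scaled reads in LHSR12, against 11074 and 14725 in LHS and 4.06 and 8.58 in CTRL. In the alternative respiration of mitochondria, 5 of 11 genes were higher and 2 lower (median 0.60). AOX1D, an alternative oxidase, had 315 and 589 scaled reads in LHSR12, against 3.0 and 3.04 in LHS (log2 fold change 6.75 ± 0.56, adjusted p = 1.86e-05), and NDA1, a dehydrogenase, had 2337 and 2745 in LHSR12 against 497 and 409.7 in LHS (2.49 ± 0.31), while UPOX had 693 and 649.6 in LHSR12 against 2400 and 2235 in LHS (−1.79 ± 0.28) and NAC013 was lower as well (−1.395 ± 0.16).

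The machinery that makes and processes RNA and ribosomes was broadly lower. Of 31 genes of nucleolar ribosome biogenesis, 27 were lower, 1 higher and 3 not called (median log2 fold change −1.16). LSG1-1, a GTPase of the large subunit, had 129 and 158 scaled reads in LHSR12, against 1488 and 1470 in LHS (log2 fold change −3.37 ± 0.16, adjusted p = 1.29e-06), and the nucleolin NUC2 had 562 and 422 scaled reads in LHSR12, against 2162 and 2157 in LHS (log2 fold change −2.15 ± 0.19, adjusted p = 2.59e-05), against 77.2 and 107 in CTRL. REIL1, a late factor, was called higher (0.32), a call lost without LHSR12_1 or LHSR12_2 (adjusted p 0.0513 to 0.0632). Most ribosomal protein genes were not called. Of 38, 28 were not called, 7 were lower and 3 higher (median −0.12), with RPS10B at 1898 and 1578 in LHSR12 against 4253 and 4457 in LHS (−1.33 ± 0.14) and RPL23aB at 1541 and 1329 in LHSR12 against 668 and 512 in LHS (1.29 ± 0.19). The calls of RPL3B (−1.30) and RPL24A (0.69) were lost, that of RPL3B without LHSR12_2, LHS_1 or LHS_2 (adjusted p 0.0511 to 0.0775) and that of RPL24A without any 1 of the 4 libraries (adjusted p 0.102 to 0.188), and the 7 falls became 1 to 3 without any 1 of the 4 libraries.

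Splicing and protein breakdown followed the same direction. Of 20 SR proteins, which guide splice site choice, 18 were lower, 1 higher and 1 not called (median −1.23). SCL33 had 750.0 and 848 scaled reads in LHSR12, against 5629 and 5662 in LHS (log2 fold change −2.82 ± 0.11, adjusted p = 5.48e-07), and RS2Z33 had 2037 and 1991 scaled reads in LHSR12, against 7977 and 9968 in LHS (log2 fold change −2.15 ± 0.12, adjusted p = 3.39e-06). RSZ22A rose, with 1116 and 1172 scaled reads in LHSR12, against 609.9 and 624 in LHS (log2 fold change 0.89 ± 0.14, adjusted p = 0.000599). Of 13 proteasome genes, 11 were lower, 1 higher and 1 not called (median −0.50), mostly by less than 2-fold. NAC078 and NAC053, paired activators of proteasome genes, went apart, with 2006 and 2004 scaled reads in LHSR12, against 5902 and 6207 in LHS for NAC078 (−1.59 ± 0.09) and 1488 and 1820 in LHSR12 against 811 and 826 in LHS for NAC053 (1.01 ± 0.15). The subunit RPT2A had 2864 and 2488 in LHSR12 against 4987 and 4825 in LHS (−0.88 ± 0.11).

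Genes of gene silencing fell more often than they rose. Of 35, 21 were lower, 4 higher and 10 not called (median −0.72). VIM1, which keeps DNA methylation in place, had 659 and 653 scaled reads in LHSR12, against 4786 and 5242 in LHS (log2 fold change −2.93 ± 0.18, adjusted p = 4.32e-06), and CLSY4, a remodeller of RNA-directed DNA methylation, had 90.398 and 85.8 scaled reads in LHSR12, against 349 and 445 in LHS (log2 fold change −2.15 ± 0.23, adjusted p = 6.34e-05). The chromatin remodeller DDM1 and the methyltransferase CMT3 were lower as well (−1.84 ± 0.20 and −1.58 ± 0.22). DML3, a demethylase, and SDC, a gene that is known to be released from silencing in heat, rose, with 415 and 326 scaled reads in LHSR12, against 71.1 and 58.8 in LHS (2.49 ± 0.21) and 368 and 372 in LHSR12 against 64.1 and 112 in LHS (2.12 ± 0.37). AGO4 and MOM1 were not called.

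Cell cycle genes changed in both directions, as did gene loci at large, of which 32.3% were higher and 31.6% lower. Of 31 cyclins and mitotic genes, 8 were higher, 11 lower and 12 not called (median −0.26). The inhibitors KRP1 and SIM rose, with 814 and 728 scaled reads in LHSR12, against 49.1 and 66.9 in LHS (log2 fold change 3.72 ± 0.21, adjusted p = 2.79e-06), and 437 and 394 in LHSR12 against 153 and 172 in LHS (1.35 ± 0.16). CDC20.1, an activator of the anaphase complex, had 145 and 186 scaled reads in LHSR12, against 797 and 880.3 in LHS (log2 fold change −2.34 ± 0.18, adjusted p = 1.35e-05), and CDC20.2 fell as well (−2.08 ± 0.15). The 8 rises became 5 without LHS_2. Of 27 genes of DNA replication and histone H3.1, 6 were higher and 12 lower (median −0.30). The histone genes HTR2 and HTR9 had 1679 and 2036 in LHSR12 against 201 and 222 in LHS and 408 and 523 in LHSR12 against 77.1 and 67.9 in LHS, and their log2 fold changes were 3.12 ± 0.22 and 2.66 ± 0.20. Reads may be shared among the H3.1 genes. PCNA2, the sliding clamp, had 378 and 393 in LHSR12 against 1380 and 1286 in LHS (−1.79 ± 0.12).

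MCM5, a subunit of the replicative helicase, had a larger fall than the other subunits. It had 956 and 999 scaled reads in LHSR12, against 20371 and 19864 in LHS (log2 fold change −4.36 ± 0.15, adjusted p = 4.56e-07), and 886 and 1156 in CTRL, whereas the log2 fold changes of MCM2, MCM3, MCM4, MCM6 and MCM7 lay between −1.004 and −0.73. In the DNA damage response, 5 of 9 genes were higher and 2 lower (median 0.58). The cell cycle inhibitor SMR7 had 209.9 and 137 scaled reads in LHSR12, against 22.0 and 11.2 in LHS (log2 fold change 3.35 ± 0.40, adjusted p = 0.000142), GMI1 had 4508 and 3223 in LHSR12 against 1536 and 1531 in LHS (1.31 ± 0.17), and the master regulator SOG1 had 209 and 214 in LHSR12 against 477 and 536 in LHS (−1.25 ± 0.18). The call of WEE1 (−0.83) was lost without any 1 of the 4 libraries (adjusted p 0.0638 to 0.36). The 5 rises became 3 without LHSR12_1, LHSR12_2 or LHS_1, and 2 without LHS_2.

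In each list of growth hormone genes, which mix synthesis, breakdown and signalling, more members were higher than lower. Of 23 auxin genes, 13 were higher, 2 lower and 8 not called (median 0.81), and the 13 became 8 without LHSR12_2 or LHS_2. YUC3, an enzyme of auxin synthesis, had 21.5 and 25.5 scaled reads in LHSR12, against 5.01 and 6.09 in LHS (log2 fold change 1.90 ± 0.36, adjusted p = 0.00178), and IAA6 was called higher (1.97) but not without any 1 of the 4 libraries (adjusted p 0.109 to 0.172). TAA1, another enzyme of auxin synthesis, fell (−1.35 ± 0.16). Of 14 cytokinin genes, 7 were higher and none lower (median 0.74), with 4 higher without LHSR12_2 and 1 lower without LHS_2. CKX5, which breaks cytokinin down, had 177 and 199 scaled reads in LHSR12, against 37.1 and 29.4 in LHS (log2 fold change 2.47 ± 0.32, adjusted p = 0.000195), and ARR16 had 18.4 and 27.1 in LHSR12 against 2.0 and 7.10 in LHS, a call lost without LHSR12_2 (adjusted p 0.0628).

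Of 17 gibberellin genes, 8 were higher and 2 lower (median 0.66). GA2OX6 had 199.9 and 247 in LHSR12 against 59.1 and 37.5 in LHS (2.22 ± 0.25), GA2OX8 had 32.9 and 31.7 in LHSR12 against 120.2 and 101 in LHS (−1.74 ± 0.33), and GA2OX2 fell as well (−1.68 ± 0.25). All 3 encode enzymes that inactivate gibberellin. GA3OX2, of its synthesis, was called higher (2.88) but not without LHSR12_1 or LHS_2 (adjusted p 0.0551 to 0.0649). Of 12 brassinosteroid genes, 8 were higher and 1 lower (median 0.60), 4 higher without LHSR12_1, 5 higher without LHSR12_2 or LHS_1, and 2 lower without either CTRL library. BES1, the transcription factor of the pathway, had 8144 and 8118 scaled reads in LHSR12, against 683 and 701 in LHS (log2 fold change 3.55 ± 0.10, adjusted p = 2.28e-07), BR6OX1, an enzyme of its synthesis, had 24.5 and 31.7 in LHSR12 against 8.01 and 5.07 in LHS (1.97 ± 0.34), and DWF4, another, had 461 and 461 in LHSR12 against 969 and 824 in LHS (−0.95 ± 0.12).

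Genes that loosen or build the cell wall were mostly higher. Of 28, 16 were higher, 4 lower and 8 not called (median 1.08). The expansin EXPA8 had 1041 and 1409 scaled reads in LHSR12, against 27.0 and 38.5 in LHS (log2 fold change 5.19 ± 0.21, adjusted p = 7.21e-07), and EXPA11 had 609 and 619 scaled reads in LHSR12, against 107 and 117 in LHS (log2 fold change 2.45 ± 0.18, adjusted p = 9.35e-06). CESA4, CESA7 and CESA8, the cellulose synthases of secondary walls, rose, with log2 fold changes between 1.28 and 1.61, whereas CESA1, CESA3 and CESA6, of primary walls, were between −0.35 and 0.01, with only CESA3 called. COB had 3461 and 3486 in LHSR12 against 10932 and 9493 in LHS (−1.55 ± 0.12), and XTH5 had 59.8 and 41.8 in LHSR12 against 223 and 339 in LHS (−2.44 ± 0.36). The 4 falls became 2 without any 1 of the 4 libraries.

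Most markers of root cells were higher in LHSR12. Of 18 root cell markers, 11 were higher, 1 lower and 6 not called (median 0.94), 7 higher without LHSR12_1. Their summed scaled reads were 4225 and 4073 in LHSR12, against 2010 and 1756 in LHS and 5345 and 4997 in CTRL. CASP2, of the endodermal barrier, had 104.95 and 85.8 scaled reads in LHSR12, against 5.01 and 5.07 in LHS (log2 fold change 3.99 ± 0.30, adjusted p = 1.01e-05), and COBL9, of root hairs, had 129 and 129 scaled reads in LHSR12, against 20.03 and 5.07 in LHS (log2 fold change 3.53 ± 0.50, adjusted p = 0.000372). PLT1 was called lower (−0.76) but not without LHSR12_1, LHS_1 or LHS_2 (adjusted p 0.0772 to 0.139).

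Of 7 stomatal lineage markers, 3 were higher, 1 lower and 3 not called (summed 1508 and 1709 scaled reads in LHSR12, against 1000 and 1258 in LHS). EPF1 had 42.1 and 32.5 in LHSR12 against 9.01 and 5.07 in LHS (2.29 ± 0.40), SPCH had 280.4 and 333 in LHSR12 against 158 and 179.5 in LHS (0.86 ± 0.16), and EPF2 was called lower (−0.88) but not without LHSR12_1 or LHS_2 (adjusted p 0.08 to 0.0885). Of 10 seed markers 8 passed the filter, and only CRA1, a storage protein, was called, with 18.4 and 13.9 scaled reads in LHSR12, against 359 and 54.8 in LHS (log2 fold change −3.06 ± 0.95, adjusted p = 0.0215). LHS_1 was far above the other 3 libraries there, and the call was lost without LHSR12_1, LHSR12_2 or LHS_1 (adjusted p 0.114 to 0.25). What part a change in the share of root, guard or seed cells had in the other results was not tested.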

How the data were processed

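Total RNA of 8 libraries, 2 in each of 4 groups, was taken from seedlings with TRIzol and sequenced from strand-specific libraries, per the labels' protocols. The deposited table gives a signal per locus and library, which the authors made by dividing reads by 1 factor per library. This was read from the values: in all 8 libraries 100% of values were whole multiples of the library's smallest step (tolerance 0.001). Whole reads were recovered for 7 libraries. LHS_1, whose step of 1.001 lies near 1, was not taken as recovered and was left out of count tests. In those tests LHS_2 was thus the only LHS library. Per the submitters' processing notes the tools were CASAVA, STAR 2.5.3a, HTSeq 0.9.1 and DESeq2 1.14.1 with build TAIR10. Their roles, and whether counting used strand, are not given in the sources used here.

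Values were tested as log2(scaled reads + 1) with limma 3.58.1 in R 4.3.3 (trended variance, all 8 libraries in 1 fit, 4 residual degrees of freedom). The contrast was LHSR12 minus LHS, over 27638 loci with a mean of at least 1, with Benjamini-Hochberg adjustment and calls at an adjusted p below 0.05. A pseudocount of 1 understates changes of low genes. On the recovered reads, edgeR 4.0.16 (quasi-likelihood) and DESeq2 1.42.0 were alternatives, with other pseudocounts, filters, scalings and left-out libraries. The procedure was tested on simulated data with 50 changed loci at each size among 27638, far fewer than were called here. It recovered 8% of 1.5-fold changes, 66% of 2-fold, 88% of 4-fold and 98% of 8-fold changes. The changed loci were all gene loci with a mean of at least 10, so these rates do not cover elements or loci with fewer reads. False calls numbered 6, or 4.41% of the simulated calls. Ratios against 3 reads or fewer have exact 95% intervals, which cover counting error only, and genes at 0 in a group have a bound from a floor of 3 reads per library.

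The groups, the 44 gene lists (905 members) and the genes named were chosen with earlier results of these data known. Named genes are the 10 largest called rises and 10 largest called falls among gene loci with a symbol, a mean of at least 50 scaled reads in the higher group and libraries that did not overlap. To these were added the 5 largest gains and 5 largest losses of scaled reads, the 2 largest called rises and falls of each list, and all heat shock factors, ONSEN copies and clock genes. Gene names came from RefSeq annotation of TAIR10.1, which held 32835 of the 33323 gene loci, 10654 of them with a symbol. Upstream windows are 250 bases before the annotated gene start on that genome. No annotation of transposable elements was used.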

Additional observations from a re-analysis of the deposited data

How the results depend on the processing

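Gene counts kept within 1.5 times the reported ones under every alternative run, and no call of a named gene was reversed. Genes that were not called, such as HSP26.5, could change sign. Without 1 library at a time, gene calls ranged from 12707 to 16462 (6465 to 8309 higher, 6127 to 8160 lower), calls of 2-fold or more from 8929 to 10168 (5024 to 5714 higher, 3869 to 4456 lower), and element calls from 1117 to 1442 (467 to 620 higher, 621 to 822 lower). Element calls were 760 with a mean of at least 10 (334 higher, 426 lower), 857 with edgeR (339 higher, 518 lower) and 577 with DESeq2 (245 higher, 332 lower), and 394 elements were higher at an adjusted p below 0.01. The first of these alternatives tests fewer loci, the count tools use 7 libraries, and beyond this the cause was not tested.

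Gene calls were 6637 higher and 6505 lower with edgeR, and 6089 higher and 6148 lower with DESeq2. Replicate numbers did not pair the libraries: deviations of LHSR12 and LHS libraries of the same number correlated at 0.003 across loci, and those of other pairs of groups at −0.061 to 0.04. With the replicate number as a block there were 15636 gene calls (7920 higher, 7716 lower), and of 210 named genes the call of RVE6 (AT5G52660) alone was lost (adjusted p = 0.0634). These 210 include genes that were not called. Without 1 LHSR12 or LHS library, between 182 and 183 of the 210 kept their call or stayed not called. The same held for 194 under edgeR and 191 under DESeq2. With 2 libraries per group, small changes and loci with few reads, many of them elements, are the ones most limited by depth and replication.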

Other observations

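In the list of lipid desaturation and cuticular wax, lipid genes changed in both directions, while every called wax gene was higher. Of 16 tested, 9 were higher, 4 lower and 3 not called in LHSR12 (median log2 fold change 0.55). Among the wax genes that rose, WSD1, a wax ester synthase, had 28.3 and 20.9 scaled reads in LHSR12, against 0 and 1.01 in LHS, a ratio of 48.9 against 1 read in LHS (exact interval 8.468 to 1961), CER4, a reductase that makes wax alcohols, had 38.3 and 41.8 in LHSR12 against 6.01 and 2.03 in LHS, and KCS6, which elongates the fatty acids of wax, had 10099 and 9610 in LHSR12 against 2684 and 1908 in LHS (2.12 ± 0.20). The desaturase FAD2 of the endoplasmic reticulum fell, with 4730 and 4394 scaled reads in LHSR12, against 13351 and 14223 in LHS (log2 fold change −1.60 ± 0.13, adjusted p = 1.84e-05). FAD8, a plastid desaturase known to be unstable at high temperature, rose, with 1053 and 858 scaled reads in LHSR12, against 155 and 194 in LHS (log2 fold change 2.45 ± 0.17, adjusted p = 7.03e-06). HIL1, a lipase that releases polyunsaturated fatty acids in heat, fell, with 1587 and 1643 scaled reads in LHSR12, against 4375 and 4805 in LHS (log2 fold change −1.51 ± 0.12, adjusted p = 1.5e-05).

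Of 14 nutrient uptake genes, 10 were higher, 1 lower and 3 not called (median 1.141), and 6 were higher without LHS_2 and 2 lower without LHS_1. HAK5, a potassium transporter, had 26.8 and 24.0 scaled reads in LHSR12, against 3.0 and 0 in LHS, a ratio of 16.8 against 3 reads in LHS (exact interval 5.506 to 83.59). FIT, the regulator of iron uptake, had 182 and 224 scaled reads in LHSR12, against 44.1 and 41.6 in LHS (log2 fold change 2.21 ± 0.19, adjusted p = 2.29e-05). The paired nitrate reductase genes went apart: NIA1 had 2468 and 2648 scaled reads in LHSR12, against 12686 and 12654 in LHS (log2 fold change −2.31 ± 0.43, adjusted p = 0.00156), and NIA2 had 30663 and 26836 scaled reads in LHSR12, against 13710 and 13965 in LHS (log2 fold change 1.05 ± 0.29, adjusted p = 0.0129). IRT1, the iron transporter of roots, was at 1.53 and 3.09 in LHSR12 against 3.0 and 10.14 in LHS and at 603 and 342 in CTRL. Of 17 autophagy genes, 4 were higher, 5 lower and 8 not called (median −0.24), against 32.3% higher and 31.6% lower over all gene loci. ATG8F had 1754 and 1903 scaled reads in LHSR12, against 665 and 566 in LHS (log2 fold change 1.57 ± 0.25, adjusted p = 0.000669), and ATG8D, of the same family of membrane tags, had 251 and 288 scaled reads in LHSR12, against 1687 and 1593 in LHS (log2 fold change −2.60 ± 0.12, adjusted p = 1.43e-06). ATG18A fell as well (−1.25 ± 0.19), and ATG8E was called higher (0.91) but not without any 1 of the 4 libraries (adjusted p 0.0701 to 0.113). The autophagy falls became 3 without any 1 of the 4 libraries and 8 without either CTRL library, and the rises became 2 without LHSR12_1.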
